A study of Mus musculus with 2 samples.

Results

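The BMP and TGF-beta signalling genes of the fetal mouse femur were followed here as a list of 44 genes, made of 14 ligands, 6 antagonists, 12 receptors and coreceptors, 8 Smads and 4 Id genes. The list was set by name and not by any measured value, and all 44 genes were found among the 22652 genes of the tables. Bone marrow was taken from C57BL/6 embryos at E18.5, crushed, treated with collagenase and depleted of lineage-committed blood cells, so that stem and progenitor cells were sequenced together with the skeletal, vascular and cartilage cells around them. One library was wild type. The other came from Bmx-CreER Wls conditional knockout embryos, in which a tamoxifen-activated Cre under Bmx, a gene of arterial endothelial cells, removes the floxed Wls gene, whose product carries Wnt ligands to the cell surface. With 1 library per genotype there was no replicate check. How many embryos went into a library, and whether the wild-type embryos were littermates or had received tamoxifen, was not given in the sources used here. Genotype, embryo and library preparation therefore cannot be told apart, no test was possible, and every interval below is a 95% interval that covers counting error only.

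BMPs, GDFs, activins and TGF-betas are secreted dimers that bring type I and type II receptor kinases together on the cell surface. BMP and GDF receptors then phosphorylate Smad1, Smad5 and Smad9, TGF-beta and activin receptors phosphorylate Smad2 and Smad3, and both groups enter the nucleus with Smad4. Secreted antagonists such as noggin, chordin, gremlin and follistatin bind the ligands, Smad6 and Smad7 block the pathway inside the cell, and the Id genes are classical BMP targets whose products hold back basic helix-loop-helix transcription factors. In the skeleton the pathway is known for cartilage condensation, growth plate maturation and joint formation, and in vessels for the endothelial receptor pair ALK1 and endoglin.

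The libraries held 5998 wild-type and 6825 Bmx-CreER Wls cell barcodes with 22708005 and 24704991 UMIs (unique molecular identifiers, 1 for each captured RNA molecule), of which 5736 and 6620 cells passed the filter. Cells were clustered without the listed genes or their pathway partners, and 5390 and 6242 of them fell into 24 classes with at least 20 cells in each library. Classes were named from marker genes, and 4 kept only the name of a leading gene. These were a Bpifb1-led cartilage class (429 and 709 cells), an Hbegf-led class (142 and 133 cells, with Clic5, Calb2, Btc and Has1 also high), an Epha3-led class (57 and 43 cells) and an Mmp13-led class (182 and 91 cells). Measured against the other clusters of the stromal group, Prg4 was also among the leading genes of the Hbegf-led class. The Mmp13-led class had Mmp13, Spp1, Cxcl12 and Col10a1 among its leading genes. Its summed markers of hypertrophic chondrocytes were at 17847 and 20897 CPM and those of osteoblasts at 13312 and 10970 CPM. Those of Cxcl12-rich stroma were at 5082 and 3659.9 CPM and those of osteoclasts at 4493 and 4401 CPM. Its stromal markers, such as Col3a1, were at 1741 and 1769 CPM, against 28542 and 22164 CPM in stromal-like cells. Not all class sizes were alike: the reserve-like class held 534 and 1264 cells and the stromal-like class 676 and 341. In the label check, the targeted gene Wls was at 8 and 2 UMIs in the 64 and 60 arterial endothelial cells (37.8 and 7.85 CPM, counts per 1000000 UMIs of the class), and it was lower in Bmx-CreER Wls also in cycling (32.3 and 8.96 CPM) and sinusoidal endothelium (58.8 and 33.5 CPM), with 256 and 198 CPM in stromal-like and 464 and 283 CPM in Mmp13-led cells. Bmx itself was at 137 and 255 CPM in the arterial cells, on 29 and 65 UMIs. Whether the counted Wls tags lie outside the deleted stretch is not known. In all, 49 cell barcodes occurred in both libraries, 48 of them among the kept cells and 4 in the same class. A cluster of 24 and 35 cells carried no UMI of the neutrophil markers in the wild type, against 25156 CPM for those markers in Bmx-CreER Wls, and was set aside together with 3 mixed clusters. The dendritic markers of this cluster were at 14527 CPM in the wild type and 4998 CPM in Bmx-CreER Wls.

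The listed genes took 54534 wild-type and 61534 Bmx-CreER Wls UMIs, 0.245% and 0.252% of each library. Their levels across classes are given as CPM with an exact Poisson interval. UMI counts are not divided by gene length and are not compared between genes. Each pair of values is given as wild type first and Bmx-CreER Wls second unless stated.

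**Figure D1:**
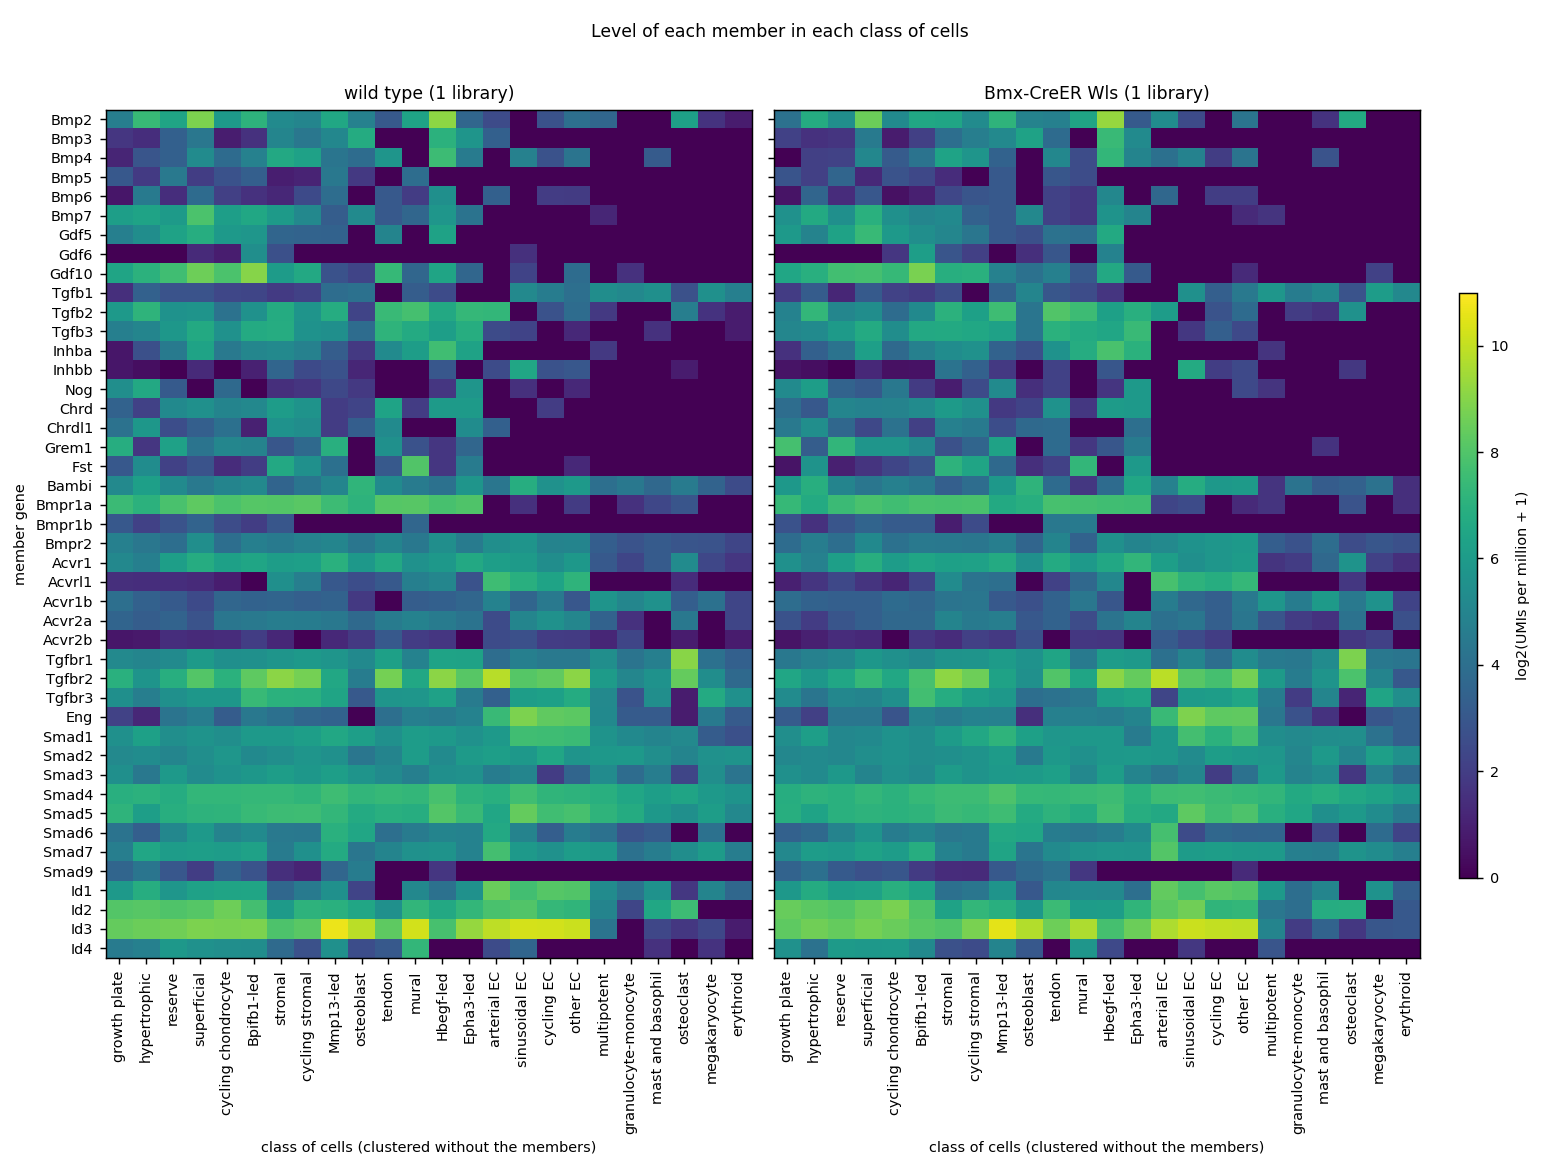
Level of each of the 44 genes (rows) in the 24 cell classes (columns) as log2(CPM + 1), given by colour, with the wild type and the Bmx-CreER Wls library side by side. Tgfbr1 had its highest level in osteoclasts, Acvrl1 in arterial and Inhbb in sinusoidal endothelium, and several ligands peaked in the Hbegf-led class in both libraries.

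Among the ligands, 5 had their highest level in the Hbegf-led class in both libraries: Bmp2, Bmp3, Bmp4, Bmp6 and Inhba. Bmp2, a strong inducer of bone and cartilage formation, stood there at 554 CPM (486 to 629, 239 UMIs) and 609 CPM (539 to 686, 275 UMIs). Superficial-like chondrocytes, the Prg4-rich cells of the joint surface, followed with 456 and 372 CPM, hypertrophic-like chondrocytes held 169 and 107 CPM, and the median class only 26.5 and 33.1 CPM. The Hbegf-led and superficial-like classes were thus both above all others for Bmp2. A Bmp2 UMI was found in 63.4% (exact binomial interval 54.9 to 71.3) and 78.2% (70.2 to 84.9) of Hbegf-led cells, or in 37.6% (29.6 to 46.1) and 37.6% (29.3 to 46.4) of 141 and 133 cells when each was thinned to 1000 UMIs. In erythroid cells, which should lack the transcript, the thinned share was 0.787% (up to 4.31) in 127 wild-type cells and 0% (up to 6.72) in 53 Bmx-CreER Wls cells at median depths of 10011 and 10492.5 UMIs per cell, against 2914 and 3345 in the Hbegf-led class. The Hbegf-led share was thus above this background in both libraries.

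The other genes with this peak were followed by various classes. Bmp3, a BMP that restrains bone formation, was at 134 CPM (102 to 174) and 175 CPM (139 to 218) in Hbegf-led cells, with osteoblast-like cells next at 108 and 79.8 CPM. Bmp4, an early skeletal and stromal BMP, was at 188 CPM (149 to 233) and 153 CPM (119 to 193) there, followed by stromal-like cells at 98.1 and 81.6 CPM and cycling stromal-like cells at 78.4 and 52.5 CPM. Inhba, which encodes the subunit of activin A, was at 195 CPM (155 to 241) and 230.4 CPM (188 to 279), followed by superficial-like cells at 82.5 and 73.8 CPM, the Epha3-led class at 80.5 and 129 CPM and mural-like cells at 68.9 and 111 CPM. The intervals of the first and second class overlapped for Bmp2 and Bmp3 in the wild type, for Inhba in Bmx-CreER Wls and for Bmp6 in both libraries, so that these orders were not resolved. Bmp6 was sparse, with 19 and 15 UMIs in Hbegf-led cells (44.0 and 33.2 CPM) and a hypertrophic-like level of 21.8 and 11.02 CPM.

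A second group of ligands was read mainly in cartilage. Bmp7 was highest in superficial-like chondrocytes, at 234 CPM (199 to 274) and 125 CPM (107 to 145), ahead of Bpifb1-led (93.5 and 31.4 CPM) and hypertrophic-like cells (83.5 and 101 CPM), and was not resolved from the hypertrophic-like level in Bmx-CreER Wls. Gdf5, the classical marker of developing joints, was likewise highest in superficial-like cells, at 115 CPM (91.1 to 144) and 171 CPM (150.0 to 194), with 79.6 and 79.1 CPM in reserve-like chondrocytes and 78.8 and 102 CPM in Hbegf-led cells, and the wild-type order was not resolved. The same joint-surface class therefore led for both genes. Gdf10, a relative of Bmp3, led instead in the Bpifb1-led cartilage class, at 514 CPM (471 to 561) and 439.8 CPM (412 to 469). Superficial-like cells held 376 and 213 CPM of Gdf10 and reserve-like cells 199 and 205 CPM. A Gdf10 UMI was found in 46.6% (41.8 to 51.5) and 46.0% (42.3 to 49.7) of the Bpifb1-led cells, in 32.8% and 26.7% of 412 and 700 cells after thinning, and in none of 129 and 56 erythroid cells, which allows shares of up to 2.82% and 6.38%. Gdf6, a joint-associated relative of Gdf5, was the most restricted ligand of this group by classes at 0: it had no UMI in 19 and 17 of the 24 classes. Its main site was again the Bpifb1-led class, with 42 UMIs (41.8 CPM, 30.1 to 56.5) and 150 UMIs (70.2 CPM, 59.4 to 82.4). Gdf6 differed between the libraries in the Hbegf-led class, with 0 UMIs in the wild type (interval up to 8.55 CPM) and 13 UMIs (28.8 CPM) in Bmx-CreER Wls. Bmp5 was low in every class and was read in reserve-like cells at 20.5 CPM (24 UMIs) and 10.98 CPM (34 UMIs) and in Mmp13-led cells at 20.1 and 7.52 CPM, which the intervals do not separate.

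**Figure D2:**
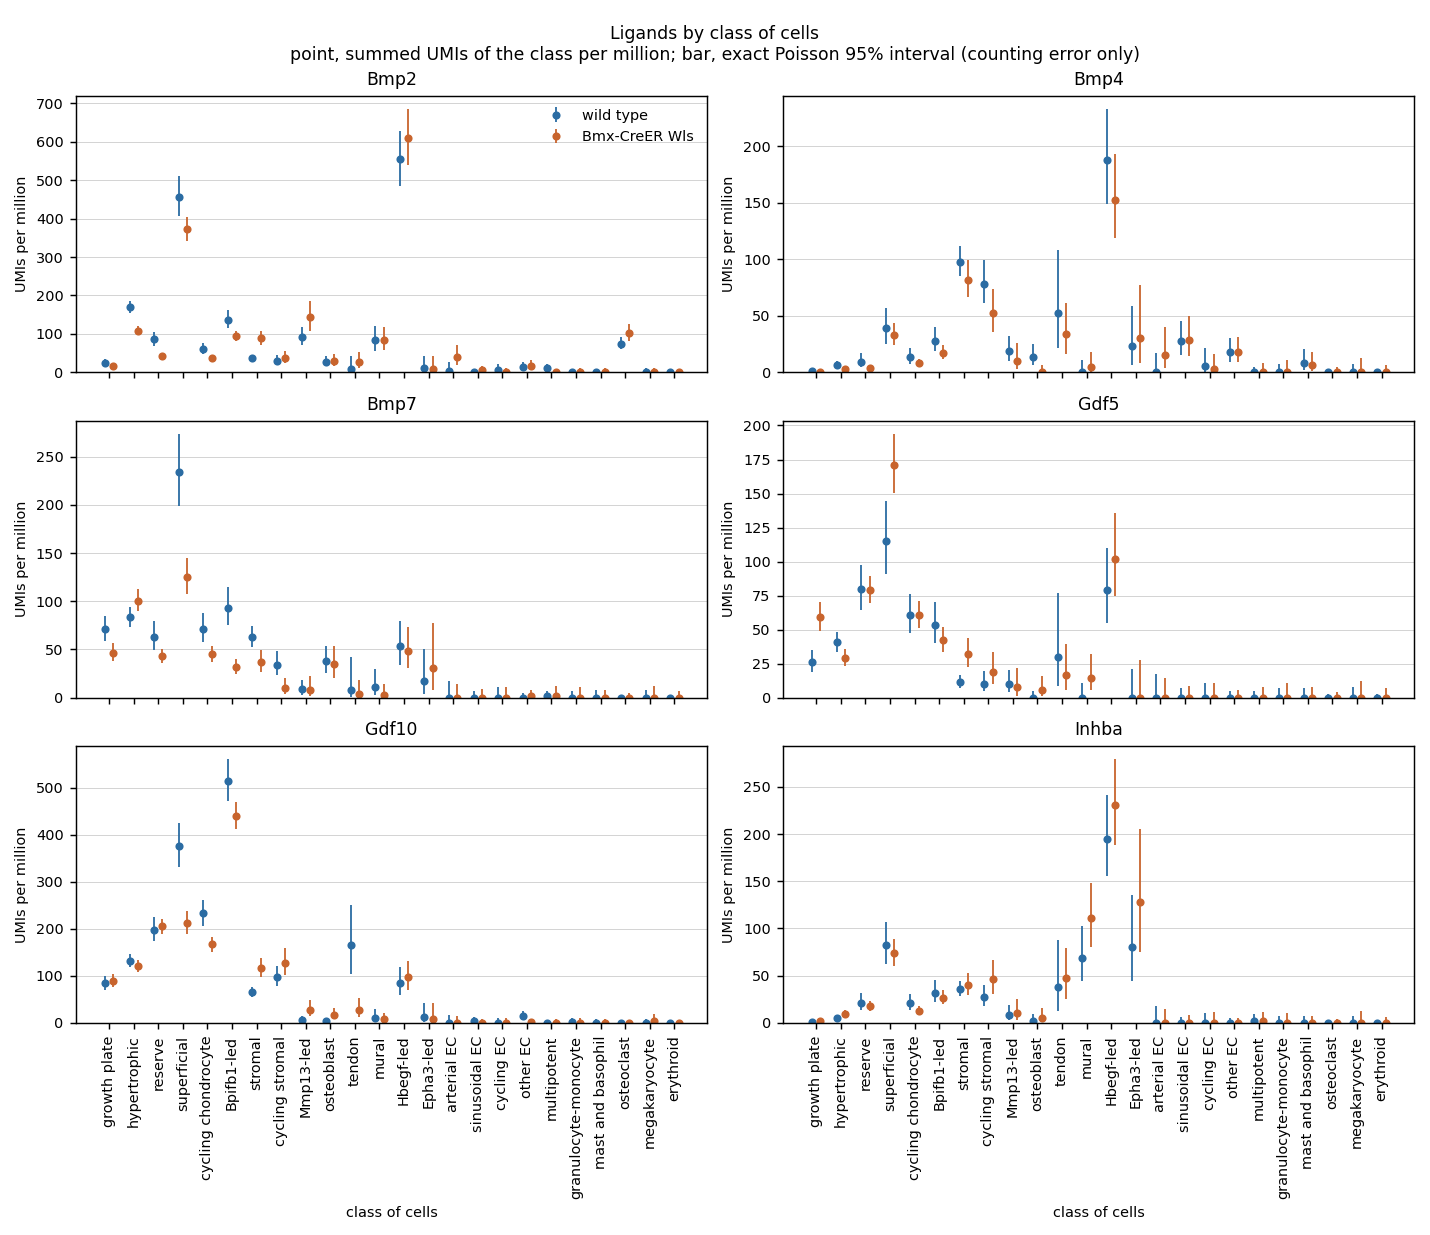
Levels of Bmp2, Bmp4, Bmp7, Gdf5, Gdf10 and Inhba in the 24 classes in CPM, 1 point per library with the exact Poisson 95% interval as a bar. Bmp2, Bmp4 and Inhba peaked in the Hbegf-led class, Bmp7 and Gdf5 in superficial-like and Gdf10 in Bpifb1-led cartilage cells.

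Of the TGF-beta genes, Tgfb1 had its highest levels in blood cells, and Tgfb2 and Tgfb3 shared tendon-like and mural-like sites. Tgfb1, the isoform of blood cells and platelets, was highest in megakaryocyte-like cells, at 44.9 CPM (28.2 to 68.0, 22 UMIs) and 67.3 CPM (41.1 to 104, 20 UMIs). Mast and basophil cells held 44.1 and 32.7 CPM, multipotent blood progenitors 41.5 and 54.2 CPM and sinusoidal endothelium 34.9 and 45.5 CPM, which the intervals do not separate from the megakaryocyte level. Tgfb2 had its highest wild-type level in mural-like cells, at 215 CPM (169 to 269.9), and its highest Bmx-CreER Wls level in tendon-like cells, at 255 CPM (201 to 319.6). Hypertrophic-like cells gave 143 and 154 CPM of Tgfb2. Tgfb3 was spread over connective tissue, with 143 and 131 CPM in tendon-like, 115 and 174 CPM in Epha3-led, 109.7 and 101 CPM in stromal-like and 106 and 103 CPM in mural-like cells, and no order among these could be read. Inhbb, the activin B subunit, was by contrast mainly sinusoidal, at 90.02 CPM (66.6 to 119, 49 UMIs) and 105 CPM (76.6 to 141, 44 UMIs) in sinusoidal endothelium, with stromal-like cells next at 11.1 and 17.1 CPM.

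The antagonists had their own sites, mostly outside the Hbegf-led class. Nog, which encodes the BMP trap noggin, was highest in hypertrophic-like chondrocytes, at 99.95 CPM (88.9 to 112, 298 UMIs) and 68.4 CPM (59.5 to 78.3, 211 UMIs), with Epha3-led cells at 51.7 and 60.5 CPM (9 and 8 UMIs) and growth plate-like cells at 41.8 and 37.0 CPM. Chrdl1, a chordin relative, was highest in the same hypertrophic-like class at 56.0 and 41.8 CPM, with stromal-like cells at 48.2 and 26.9 CPM. Hypertrophic cartilage had the highest value for both antagonists, but for each gene its interval overlapped that of the second class in both libraries. Chrd, chordin itself, lay close together in stromal-like (67.3 and 62.8 CPM), Hbegf-led (62.6 and 64.2 CPM), Epha3-led (63.2 and 60.5 CPM) and tendon-like cells (82.6 and 47.0 CPM, from 11 and 14 UMIs). Fst, which encodes the activin-binding protein follistatin, was highest in mural-like cells at 258 CPM (208 to 318) and 155 CPM (119 to 198), and second in stromal-like cells at 98.1 and 136 CPM, an order not resolved in Bmx-CreER Wls. Bambi, a decoy receptor without a kinase domain, was detected in all 24 classes and was highest in osteoblast-like cells at 147 CPM (122 to 176) and 143 CPM (113 to 179), with sinusoidal endothelium at 114 and 113 CPM and hypertrophic-like cells at 72.1 and 116 CPM, and the first place was not resolved.

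Grem1, which encodes the BMP antagonist gremlin 1, was read mainly in cartilage and in the Mmp13-led class. In wild-type cells it was at 123 CPM (98.6 to 152) in the Mmp13-led class and 114 CPM (98.7 to 131) in growth plate-like chondrocytes, which the intervals do not separate. In Bmx-CreER Wls cells the growth plate-like level of 217 CPM (198 to 239) and the reserve-like level of 152 CPM (139 to 167) were both above the Mmp13-led level of 80.2 CPM (54.8 to 113). Grem1 lies on chromosome 2 at chr2:113746164-113758646, minus strand (GRCm38). Its promoter window is shown because Grem1 differed between the libraries in several cartilage classes. The capitals mark GGCGCC, a palindromic GC-rich element known from BMP-responsive promoters, which starts 78 bases before the RefSeq start. Read on both strands, GGCGCC occurred in 11.9% of the 32851 RefSeq promoter windows of GRCm38.p6. Of the 33 windows of listed genes it occurred in 12, which belong to 11 of the 28 listed genes that have a window. A match describes the letters and not a bound site. The bases before the start, 5′ to 3′ on the gene's strand, are at chr2:113758649-113758898.
Grem1: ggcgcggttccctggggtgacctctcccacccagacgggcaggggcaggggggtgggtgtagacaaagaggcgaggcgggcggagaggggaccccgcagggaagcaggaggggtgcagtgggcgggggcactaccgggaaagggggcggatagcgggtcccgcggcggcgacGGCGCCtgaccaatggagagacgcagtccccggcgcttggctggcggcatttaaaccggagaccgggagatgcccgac

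Receptors divided into broadly read and cell-restricted genes. Bmpr1a, the type I receptor ALK3, was among the broad ones, with a median class at 158 and 111 CPM and its highest levels in superficial-like (307 and 226 CPM) and cycling stromal-like cells (288 and 231 CPM). Acvr1, the type I receptor ALK2, was detected in all classes and was at 125 and 105 CPM in Mmp13-led, 111 and 119 CPM in superficial-like and 97.7 and 151 CPM in Epha3-led cells, an order that the intervals do not resolve. Bmpr2, the BMP type II receptor, was low but also present in every class, with 3.92 and 5.46 CPM in erythroid cells, 51.4 and 47.9 CPM in sinusoidal and 30.3 and 60.7 CPM in other endothelial cells. Against this, Bmpr1b, the receptor ALK6 of early cartilage, was near the limit of detection, with its highest mean level of 11.5 and 22.1 CPM in mural-like cells resting on 4 and 9 UMIs. Acvr2b, an activin type II receptor, had 35 and 36 UMIs in the whole libraries and was too sparse to place. Acvr2a, its paralog, was highest in wild-type cycling endothelium at 46.9 CPM (26.8 to 76.2, 16 UMIs), where Bmx-CreER Wls had 8.96 CPM (1.85 to 26.2, 3 UMIs), and Acvr1b, the activin receptor ALK4, was highest in blood cells, at 46.1 and 63.4 CPM in the mast and basophil class and 51.5 and 54.2 CPM in multipotent progenitors.

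ALK1 and endoglin, the endothelial receptor pair, were read mainly in the endothelial classes. Acvrl1, which encodes ALK1, was at 194 CPM (139 to 263, 41 UMIs) and 219.9 CPM (166 to 286, 56 UMIs) in arterial endothelium. Other endothelial cells held 140.4 and 161 CPM, sinusoidal cells 123 and 137 CPM and cycling endothelial cells 82.1 and 114 CPM of Acvrl1, and the arterial interval overlapped that of other endothelial cells in both libraries. Eng, the coreceptor endoglin, ran in another order, with 448 CPM (394 to 508) and 469 CPM (406 to 540.0) in sinusoidal cells, 314 and 311 CPM in cycling, 297 and 314 CPM in other and 175 and 173 CPM in arterial endothelium. The sinusoidal and arterial intervals of Eng did not overlap in either library. Tgfbr2, the TGF-beta type II receptor, again peaked in arterial endothelium, at 911 CPM (787 to 1049.5) and 923 CPM (809 to 1049), but was also at 537 and 564 CPM in stromal-like and 538 and 538 CPM in Hbegf-led cells.

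**Figure D3:**
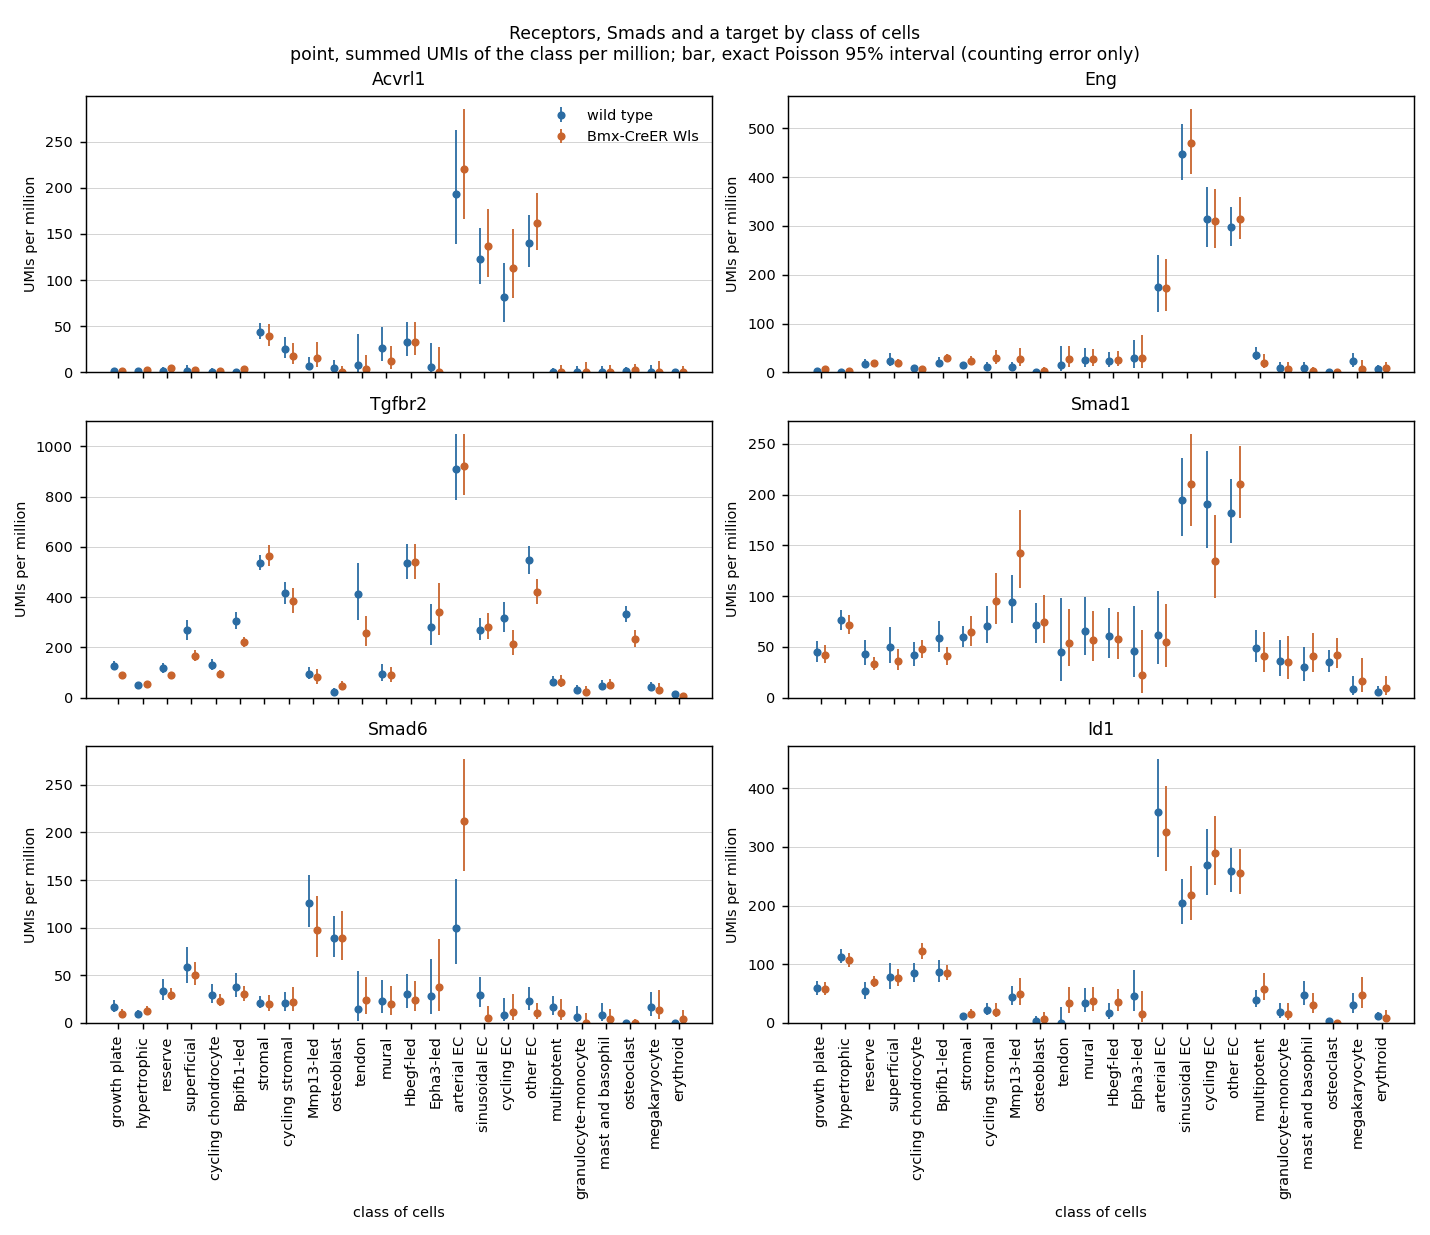
Levels of Acvrl1, Eng, Tgfbr2, Smad1, Smad6 and Id1 by class in CPM, 1 point per library with the exact Poisson 95% interval as a bar. Acvrl1 and Tgfbr2 were highest in arterial and Eng in sinusoidal endothelium, and Smad6 in arterial cells was 99.2 CPM in the wild type and 212 CPM in Bmx-CreER Wls.

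Tgfbr1, the type I receptor ALK5, stood apart from its partner Tgfbr2. Osteoclast-like cells held 521 CPM (482 to 563, 654 UMIs) and 459 CPM (414 to 507, 380 UMIs), and the next classes were Hbegf-led cells at 83.4 and 66.5 CPM and tendon-like cells at 75.1 and 84.0 CPM. A Tgfbr1 UMI was seen in 84.2% (77.8 to 89.4) and 71.7% (62.1 to 80.0) of osteoclast-like cells and in 8.53% and 16.1% of the deeper erythroid cells. After thinning these shares were 34.8% (27.5 to 42.7) and 35.6% (26.4 to 45.6) of 161 and 104 osteoclast-like cells, against 0.787% and 0% of 127 and 53 erythroid cells. Tgfbr3, the coreceptor betaglycan, was highest in the Bpifb1-led cartilage class at 170.1 CPM (146 to 198) and 205 CPM (187 to 226), not resolved from stromal-like cells (131 CPM) in the wild type, and nearly absent from osteoclast-like cells, where 1 UMI was counted in each library. The class highest for Tgfbr1 thus held almost no Tgfbr3.

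The receptor-activated Smads were detected in every class except for Smad9. Smad5 had its highest value in sinusoidal endothelium at 333 CPM (286 to 385) and 311 CPM (260.2 to 369.7), an order not resolved from the second class in either library. Smad1 was at 195 and 211 CPM in sinusoidal, 191 and 134 CPM in cycling and 182 and 210.1 CPM in other endothelial cells. Smad9, the least abundant BMP Smad by UMIs here, reached 23.9 CPM in wild-type osteoblast-like, 16.8 CPM in Bmx-CreER Wls tendon-like, and 18.1 and 15.6 CPM in hypertrophic-like cells. Smad2 and Smad3, the TGF-beta and activin Smads, peaked at 90.9 CPM of Smad2 in wild-type cycling endothelium and 71.6 CPM of Smad3 in wild-type Mmp13-led cells, and cycling endothelium held 1 UMI of Smad3 in each library. Smad4, the common partner, was also read in every class, from 48.6 and 58.3 CPM in erythroid cells to 222 CPM in wild-type Hbegf-led and 240.5 CPM in Bmx-CreER Wls Mmp13-led cells.

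The inhibitory Smads both reached high levels in arterial endothelium. Smad7 was at 208 CPM (151 to 279) and 263 CPM (204 to 334) there, with 77.6 and 115 CPM in Bpifb1-led cells and 105 and 85.2 CPM in Mmp13-led cells. Smad6, which blocks BMP receptors in particular, was at 99.2 CPM (61.4 to 152, 21 UMIs) in wild-type arterial cells, under the 126 CPM of Mmp13-led cells, and at 212 CPM (159 to 277, 54 UMIs) in Bmx-CreER Wls arterial cells. Its promoter is shown because of this arterial difference. Smad6 lies at chr9:63953076-64022059 on the minus strand (GRCm38), and the capitals mark GTCTAGAC, the palindromic Smad-binding element, which begins 4 bases before the RefSeq start. Read on both strands, GTCTAGAC was found in 0.213% of the 32851 windows and in 1 of the 33 windows of the 28 listed genes that have one, that of Smad6 itself. It holds the shorter Smad-binding letters GTCT, which alone occur in 88.0% of the windows. The 254 bases shown are at chr9:64022056-64022309.
Smad6: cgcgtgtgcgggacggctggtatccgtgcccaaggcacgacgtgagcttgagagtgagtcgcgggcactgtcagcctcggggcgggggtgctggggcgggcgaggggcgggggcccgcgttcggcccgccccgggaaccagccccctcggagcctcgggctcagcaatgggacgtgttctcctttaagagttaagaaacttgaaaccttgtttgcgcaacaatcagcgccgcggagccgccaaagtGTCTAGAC

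The Id genes were read in overlapping but distinct cells. Id1 was endothelial, with 359 CPM (283 to 449) and 326 CPM (259.6 to 404) in arterial, 269.9 and 289.7 CPM in cycling, 259 and 256 CPM in other and 204 and 218 CPM in sinusoidal endothelium, against a median class of 45.2 and 48.6 CPM. The arterial and cycling intervals of Id1 overlapped in both libraries. Id3 had a median class at 381 and 362 CPM and was highest in Mmp13-led cells at 1646 CPM (1552 to 1744) and 1511 CPM (1392 to 1636). A UMI of Id3 was seen in 90.1% (84.8 to 94.0) and 86.8% (78.1 to 93.0) of Mmp13-led cells, and in 71.8% and 58.9% of 181 and 90 cells after thinning, against 0% and 1.89% of 127 and 53 thinned erythroid cells. Id3 joined Id1 in endothelium, at 1258 and 1107 CPM in sinusoidal and 1206 and 1009.6 CPM in cycling cells. Id4 was mural and cartilage, with 155 and 54.1 CPM in mural-like and 56.5 and 62.6 CPM in reserve-like cells. Among the 24 classes, Id2 was highest in cycling chondrocytes at 384 CPM (350.4 to 421) and 435 CPM (409.7 to 462), with sinusoidal endothelium at 261 and 395 CPM, not resolved from it in Bmx-CreER Wls. Id2 was not detected in megakaryocyte-like cells in either library. The set-aside cluster of 24 and 35 cells, which is not a class, held more Id2, at 1749 and 1555 CPM. Macrophage-like cells, too few for a class at 12 and 13 cells, held 631 and 163 CPM. Id2 lies at chr12:25093799-25097140 on the minus strand (GRCm38), and its window is shown because Id2 differed between the libraries in both tendon-like and mural-like cells. The RefSeq start used lies within that gene span, the bases before it are at chr12:25096093-25096342, and the capitals mark GGCGCC, 231 bases before the start.
Id2: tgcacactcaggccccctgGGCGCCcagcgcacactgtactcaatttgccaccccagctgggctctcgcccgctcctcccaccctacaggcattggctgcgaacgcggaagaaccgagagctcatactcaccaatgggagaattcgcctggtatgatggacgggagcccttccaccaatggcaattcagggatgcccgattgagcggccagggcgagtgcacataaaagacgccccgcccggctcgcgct

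Of the 43 listed genes with at least 50 UMIs in each library (Acvr2b was left uncounted), 28 had the same highest class in both libraries, or 65.1%. Over all 12177 genes counted the same way the share was 47.6%. In 9 of the 43 the interval of the highest class lay apart from that of the second in both libraries, namely Bmp4, Gdf6, Gdf10, Inhbb, Tgfbr1, Tgfbr2, Eng, Smad7 and Id3. Over 7 alternatives of cells, clusters or scale, 16 of the 28 had the same highest class in both libraries every time. Neither this count nor the 9 above was made over all genes, so neither is read as a trait of the list. Bmp5, Bmp7, Gdf5, Gdf6, Gdf10, Tgfb1, Inhba, Nog, Bambi, Bmpr1b, Smad1 and Id2 did not in at least 1 alternative. The other pathway genes, which were not in the list, gave 33 of 43. The 15 genes with differing highest classes were Tgfb2, Tgfb3, Chrd, Grem1, Bmpr1a, Bmpr2, Acvr1, Acvr1b, Acvr2a, Smad2, Smad3, Smad4, Smad6, Smad9 and Id4.

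Pairs of listed genes followed similar or opposite patterns over the 24 classes. As a description over classes, which share library and depth, Tgfb3 and Bmpr1a had the highest correlation of log2(CPM + 1), with r = 0.94 and 0.91. Gdf5 and Gdf10 followed with 0.90 and 0.94, Tgfb3 and Inhba with 0.89 and 0.89, and Bmp7 and Gdf10 with 0.88 and 0.90. Tgfb1 and Tgfb2 ran in opposite order, with r = -0.81 and -0.73, Tgfb1 being highest in blood cells and Tgfb2 in mural and connective tissue.

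Of the other pathway genes, 59 of 61 were in the tables. The 7 counted secreted antagonists all kept their highest class between libraries, as did both counted coreceptors, 10 of 11 latency and matrix genes, 4 of 5 other ligands, and 5 of 9 genes in each of the sets of intracellular regulators and known targets. Fstl1, a follistatin-like secreted protein, was at 7428 and 6756 CPM in stromal-like cells, and Twsg1, a BMP-binding protein, at 346 and 339.5 CPM in superficial-like cells. Among latency and matrix genes, Thbs1, which activates latent TGF-beta, was highest in hypertrophic-like cells at 1415 and 1223 CPM and Fbn2, a fibrillin that stores latent complexes, in Epha3-led cells at 1707 and 2042 CPM. Of the known targets, Ctgf was highest in hypertrophic-like cells at 1310.1 and 993 CPM and Tgfbi in Hbegf-led cells at 795 and 986 CPM. The hypertrophic zone, with the highest values of Nog and Chrdl1, therefore also had those of Thbs1, Ctgf and Bmp8a, a further BMP ligand at 53.0 and 41.8 CPM.

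The libraries were then compared within each class. A pair of gene and class entered if it had at least 50 UMIs over both libraries, and was called when the CPM differed by more than 2-fold in either direction. Of 384 pairs of listed genes, 15 (3.91%) were past 2-fold, against 2101 of 111003 pairs of all genes, or 1.89%. They came from 10 genes and 9 classes, with 8 pairs higher and 7 lower in Bmx-CreER Wls. The remaining 15 classes were set apart as those without a listed gene past 2-fold. Their 196 pairs are therefore inside the limit by definition and are not a result. All genes gave 1.68% there. The 369 pairs inside 2-fold were the rule, although 105 of the 384 had a counting interval that did not include 1. That count was not made over all genes, so it is not read as a trait of the list. The median log2 ratio of the listed genes lay below 0 in each of the 6 cartilage classes, at -0.26 in Bpifb1-led, -0.17 in reserve-like, -0.17 in cycling, -0.16 in superficial-like, -0.09 in growth plate-like and -0.08 in hypertrophic-like cells. Over all genes the medians of reserve-like, cycling and Bpifb1-led cells were 0.01, -0.01 and -0.01, and those of superficial-like and growth plate-like cells -0.08 and -0.06. That of hypertrophic-like cells was -0.0001. Medians of the listed genes below 0 were not particular to cartilage. They were also found in Epha3-led (-0.39, on 3 genes), mural-like (-0.16), erythroid (-0.09) and cycling endothelial cells (-0.08). Granulocyte-monocyte cells were at -0.04, and Mmp13-led, osteoblast-like and Hbegf-led cells at -0.02 each. The other classes were above 0, up to 0.46 in mast and basophil cells. In stromal-like cells the listed genes were at 0.06 and all genes at 0.05.

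**Figure D4:**
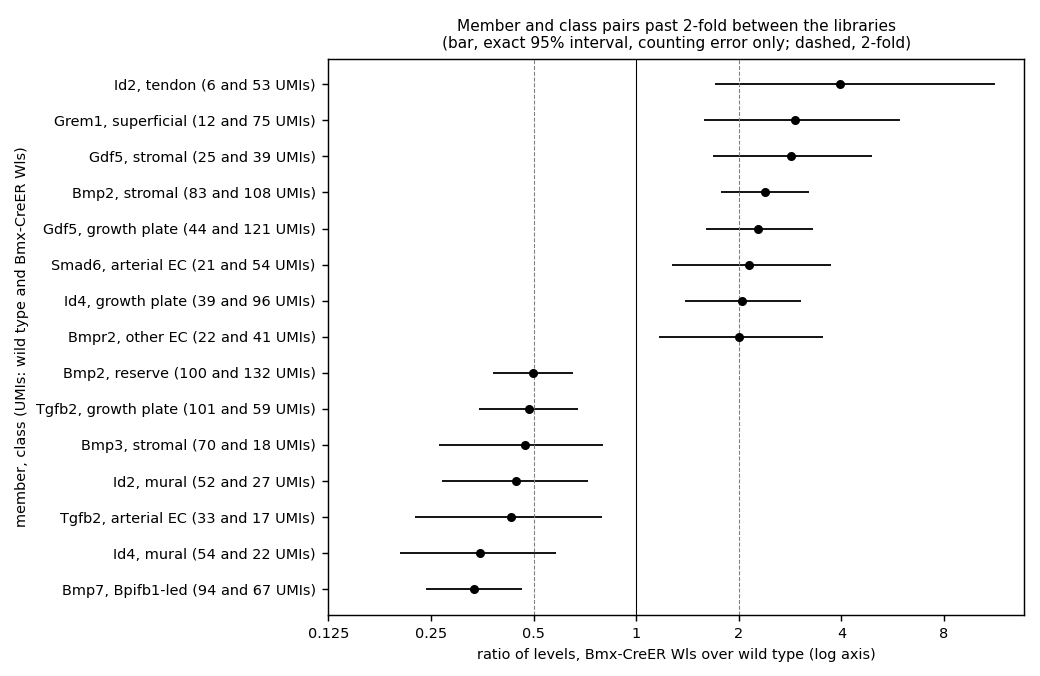
The 15 pairs of gene and class past 2-fold, as the Bmx-CreER Wls to wild-type ratio of CPM on a log axis with the exact conditional 95% interval. The ratios run from 0.335 for Bmp7 in Bpifb1-led cells to 3.95 for Id2 in tendon-like cells.

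In growth plate-like chondrocytes, 3 of 27 listed genes were past 2-fold, with 2.15% of all genes past it. Gdf5 was at 44 and 121 UMIs (25.9 and 59.0 CPM, ratio 2.28, 1.6 to 3.29) and Id4 at 39 and 96 UMIs (22.9 and 46.8 CPM, ratio 2.04, 1.39 to 3.04). Tgfb2 went the other way, with 101 and 59 UMIs (59.4 and 28.8 CPM, ratio 0.484, 0.345 to 0.674). In these cells the summed tendon markers were at 2399 and 3459 CPM (6 and 5 of 6 markers detected, Kera at 0 in Bmx-CreER Wls, 2 markers higher and 4 lower there), and their part in the result was not tested. Gdf5 came inside 2-fold with 30 principal components or with each library clustered alone (down to 1.51), Tgfb2 with edgeR TMM or DESeq2 size factors (up to 0.511), and Id4 in 5 of 10 alternatives (down to 1.43). The alternatives counted for each pair include a minimum of 20 UMIs and a limit of 1.5-fold. Both reuse the main ratio and could not lose a call, here or below. In reserve-like chondrocytes 1 of 29 listed genes was called, with 1.75% of all genes: Bmp2 was at 100 and 132 UMIs, 85.6 and 42.6 CPM (ratio 0.498, 0.381 to 0.652). The superficial markers, whose own class is rich in Bmp2, were at 2089 and 1509 CPM in reserve-like cells (all 5 detected in both libraries and lower in Bmx-CreER Wls), and their part was not tested. The Bmp2 ratio came inside 2-fold with TMM or DESeq2 factors and with 30 principal components (up to 0.571).

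Grem1 was higher in Bmx-CreER Wls in several cartilage classes. In superficial-like cells, where it was the 1 gene of 27 called and 2.61% of all genes were, Grem1 was at 12 and 75 UMIs (17.99 and 52.7 CPM, ratio 2.93, 1.58 to 5.92). When each library was clustered alone the superficial-like ratio was 1.25. Inside 2-fold, Grem1 had a ratio of 1.90 (1.61 to 2.27) in growth plate-like, 1.96 (1.56 to 2.48) in reserve-like and 1.62 (1.12 to 2.37) in cycling chondrocytes. The Bpifb1-led class gave 1.17 (0.749 to 1.86) and the Mmp13-led class 0.651 (0.419 to 0.987), so that the direction was not shared by all Grem1-positive cells. The mix of cartilage cells also differed between the libraries. At a finer clustering a cluster led by Serpina3n, Ucma and Grem1, named reserve-like there, held 363 and 957 cells. An Epyc-led cluster, named growth plate-like, held 453 and 372. Serpina3n, Ucma and Grem1 were also among the leading genes of the growth plate-like class used here, so its Grem1 level depends on where these cells are placed. Grem1 was not compared within these finer clusters, and the part of the mix was not tested. In superficial-like cells the chondrocyte markers summed to 44691 and 60583 CPM (all 10 detected, 9 higher in Bmx-CreER Wls) and the tendon markers to 5250.0 and 8814 CPM (4 and 5 of 6 detected, with Tnmd and Kera at 0 in the wild type and Kera at 0 in Bmx-CreER Wls), and their part was not tested. Over the whole libraries Grem1 was at 22.6 and 53.5 CPM, which also holds the larger number of reserve-like cells.

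Bmp7 in the Bpifb1-led class was the lowest ratio of the 15. It was at 94 and 67 UMIs, 93.5 and 31.4 CPM, a ratio of 0.335 (0.241 to 0.464), and was the 1 gene of 30 called, with 2.14% of all genes. Superficial markers were also lower in that class, at 4580.5 and 2650.3 CPM (all 5 detected and all lower), while chondrocyte markers were at 40963 and 48167 CPM. Bmp7 was itself lower in superficial-like cells, at 234 and 125 CPM, inside the 2-fold limit. The part of the superficial markers in the result was not tested. The ratio lay between 0.3079 and 0.347 in the 8 alternatives in which the class was found, of which those of 20 UMIs and 1.5-fold repeat the main ratio.

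In stromal-like cells 3 of 30 listed genes were called, against 2.22% of all genes, and the mix of clusters inside the class differed between libraries. Bmp2 was at 83 and 108 UMIs (37.0 and 88.1 CPM, ratio 2.38, 1.77 to 3.21), Gdf5 at 25 and 39 UMIs (11.1 and 31.8 CPM, ratio 2.85, 1.68 to 4.92) and Bmp3 at 70 and 18 UMIs (31.2 and 14.7 CPM, ratio 0.470, 0.264 to 0.799). With each library clustered alone Bmp2 was at 1.25 and Gdf5 at 1.58. Bmp3 stayed past 2-fold in all 10 alternatives, of which those of 20 UMIs and 1.5-fold could not lose the call. The class joined an Slc26a7-led cluster 2 of 191 and 187 cells, an Mfap5-led cluster 5 of 424 and 141 cells and a Pi16-led cluster 11 of 61 and 13 cells. The study's own stromal list of 1089 wild-type cells includes 662 of the 676 in this class. It had Bmp2 at 97.7, Bmp3 at 40.5 and Gdf5 at 21.6 CPM, so these wild-type levels depended on which cells were taken in. The list is wider than the class and was used for wild-type cells only, so no ratio between the libraries can be read from it. Within cluster 2, which held 59 and 87 of the Bmp2 UMIs, the Bmp2 ratio was 1.37 (0.973 to 1.94) and the Gdf5 ratio 1.81 (1.01 to 3.33). Bmp2 in cluster 5 gave 1.26 (0.471 to 3.08). In the small cluster 11 it was 5.75 (2.13 to 17.0), on 7 and 13 UMIs. The Bmp2 ratios inside both larger clusters were therefore nearer 1 than in the whole class. Gdf5 in cluster 5 was at 6 and 1 UMIs (ratio 0.447, 0.00971 to 3.68). Neither Gdf5 nor Bmp3 shared a direction between the clusters, Bmp3 having 1.55 (0.635 to 4.01) in cluster 2, 0.122 (0.0143 to 0.467) in cluster 5 and 0.182 (0.00436 to 1.16) in cluster 11.

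**Figure D5:**
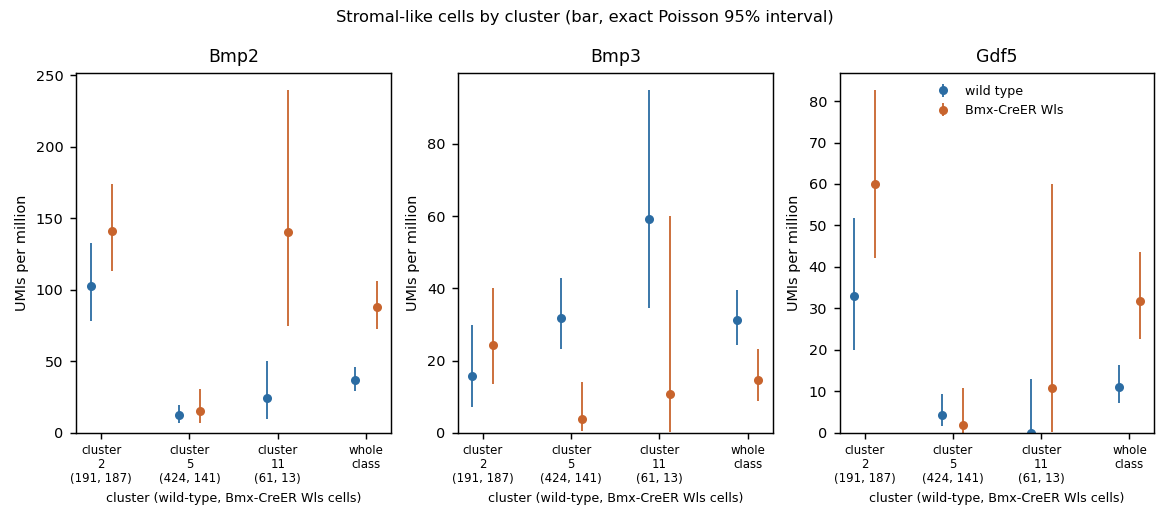
Bmp2, Bmp3 and Gdf5 in CPM in the 3 clusters of the stromal-like class and in the whole class, 1 point per library with the exact Poisson 95% interval as a bar and the cell numbers under each cluster. Cluster 2 makes up 191 of 676 wild-type and 187 of 341 Bmx-CreER Wls cells, and Bmp2 differs less within it (103 and 141 CPM) than in the class (37.0 and 88.1 CPM).

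Id2 was called in the tendon-like and the mural-like class in opposite directions. In tendon-like cells (43 and 94 cells) Id2 was at 6 and 53 UMIs, 45.0 and 178 CPM, a ratio of 3.95 (1.70 to 11.3), 1 of 8 listed genes with 5.70% of all genes past 2-fold. The median log2 ratio of all genes in this class was itself 0.12, and at the finer clustering the Id2 ratio was 1.53. The osteoblast markers, which include Col1a1, were at 95787 and 74033 CPM there (6 and 3 of 11 detected, with Dmp1, Bglap and Bglap2 among those at 0 in both libraries and Sp7, Alpl, Ibsp and Phex at 0 in Bmx-CreER Wls), and their part was not tested. In mural-like cells Id2 was at 52 and 27 UMIs, 149 and 66.4 CPM (ratio 0.445, 0.269 to 0.721), and Id4 at 54 and 22 UMIs, 155 and 54.1 CPM (ratio 0.349, 0.202 to 0.583). They were the 2 called among 12 listed genes, with 3.05% of all genes. Both calls held in all 10 alternatives, of which those of 20 UMIs and 1.5-fold could not lose them. Chondrocyte markers were at 5269 and 2381 CPM (all 10 detected, 9 lower in Bmx-CreER Wls) and cycling markers at 2222 and 1274 CPM (all 8 detected and lower) in mural-like cells, against 18976 and 20443 CPM of the mural markers themselves, and their part was not tested.

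In arterial endothelium, the class in which the Cre is driven, 2 of 10 listed genes were past 2-fold, with 1.78% of all genes. Smad6, whose promoter is given above, was at 21 and 54 UMIs (99.2 and 212 CPM, ratio 2.14, 1.27 to 3.73). With the stricter cell filter this ratio was 1.58. Tgfb2 was at 33 and 17 UMIs, 156 and 66.8 CPM (ratio 0.428, 0.224 to 0.792). The arterial markers summed to 5922 and 6005 CPM, nearly alike, while the chondrocyte markers were at 279 and 962 CPM (9 and 10 of 10 detected, Sox9 at 0 in the wild type, all 10 higher in Bmx-CreER Wls) and the cycling markers at 581 and 1072 CPM (all 8 detected and higher), and their part was not tested. The other arterial genes of the list, Acvrl1, Eng, Tgfbr2, Smad7 and Id1, were all inside 2-fold. In other endothelial cells Bmpr2 was the 1 gene of 15 called, with 1.24% of all genes, at 22 and 41 UMIs (30.3 and 60.7 CPM, ratio 2.004, 1.17 to 3.53). Inside the 3 larger clusters of that class the Bmpr2 ratio was 2.58, 2.29 and 1.33, each with an interval that included 1. A further cluster of 5 and 8 cells held 0 and 1 Bmpr2 UMIs. The call was lost in 4 of 9 alternatives (down to 1.85), and those of 20 UMIs and 1.5-fold among the 9 could not lose it.

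Of the other pathway genes, 12 pairs were past 2-fold. They included Ltbp4, which tethers latent TGF-beta to the matrix, at 6.04 and 22.7 CPM in hypertrophic-like cells (ratio 3.76, 2.21 to 6.71). Thbs1 in cycling stromal-like cells was at 268 and 127 CPM (ratio 0.475, 0.364 to 0.614) and Ltbp1 in tendon-like cells at 210.2 and 97.4 CPM (ratio 0.464, 0.266 to 0.809). By list, latency and matrix genes gave 3 higher and 2 lower pairs of 115, known targets 3 and 1 of 74, other ligands 1 and 0 of 6, antagonists 0 and 1 of 61, intracellular regulators 1 and 0 of 138, and coreceptors 0 of 8. Their median log2 ratios lay between -0.13 and 0.32.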

How the data were processed

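Per the labels and the study's methods, the 2 BD Rhapsody whole-transcriptome libraries were made from lineage-depleted marrow. What the authors deposited are raw UMI counts for each gene in each cell barcode; the submitters' processing notes name bcl2fastq 2.19.1.403, UMI-tools 1.0.1, STAR 2.7.1a, featureCounts 1.6.4 and build mm10. Deduplicated UMIs count molecules, and a gene that shares reads with others can lose them.

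The cell filter kept barcodes that had over 200 but under 5000 detected genes and less than 30% mitochondrial counts (median 3128 UMIs per cell in the wild type and 3067 in Bmx-CreER Wls). They were clustered with scanpy 1.11.5 and igraph 0.11.9 (counts scaled to 10000 per cell, 11 principal components, 20 neighbours, Leiden resolution 0.5), without the listed genes, their pathway partners, cell cycle, mitochondrial and ribosomal genes, and again within the stromal, endothelial, cartilage and blood clusters. Cartilage zones were taken from the first clustering. A class was named from at least 3 markers of a list raised 2-fold, with a mean log2 fold of at least 1 and 1 marker among the 10 leading genes. One cluster that met these limits for Cxcl12-rich stroma had more leading genes of other lists and was called by its leading gene Mmp13. These limits, the clustering within blood cells and the setting aside of mixed clusters were chosen after the data were seen. Scrublet marked 39 wild-type and 0 Bmx-CreER Wls cells and had not worked, so doublets were kept. The markers Snorc and Gp6, and Gdf1 and Gdf7 of the pathway lists, were not among the genes of the tables.

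UMIs were summed by class and library and given per 1000000 with exact Poisson intervals; shares have exact Clopper-Pearson intervals, and ratios exact conditional binomial intervals (scipy 1.17.1). For a count of 0 the upper end of the Poisson interval lies above 3 UMIs. With 1 library per group no count model was fitted. Scripts were tested on simulated data. Values by class were given for listed genes with at least 50 UMIs in each library whose highest class was the same in both, other listed genes being placed by their leading classes, and values between libraries for those past 2-fold, beside Grem1 in its other classes and Gdf6 in 1 class, which were chosen after their values were seen; other pathway genes were named as the 2 with the most UMIs of a list, and as examples among those past 2-fold. The genes and lists were chosen with earlier results of these data known. Alternatives were other scalings (edgeR 4.0.16 TMM, DESeq2 1.42.0 size factors), cell filters, clusterings, fold limits and UMI minimums.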

Additional observations from a re-analysis of the deposited data

Results flagged for a closer look

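The same gene went in opposite directions between the libraries in 2 classes for 3 genes. With 1 library per genotype the difference between the classes was not tested and could not be. Id4 had a Bmx-CreER Wls to wild-type ratio of 2.04 in growth plate-like chondrocytes and 0.349 in mural-like cells. Bmp2 had a ratio of 0.498 in reserve-like chondrocytes and 2.38 in stromal-like cells. Id2 had a ratio of 3.95 in tendon-like cells, on 6 wild-type UMIs, and 0.445 in mural-like cells.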

How the results depend on the processing

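No paired analysis was possible because each genotype has 1 library, and for the same reason no library could be left out. The 15 pairs of listed gene and class past 2-fold became 33 at a minimum of 20 UMIs (6.15% of listed pairs, 5.26% of all), 1 at a minimum of 200 UMIs (0.730% and 0.659%) and 75 at a limit of 1.5-fold (19.5% and 11.4%), and lay between 14 and 19 under the other scalings, filters and clusterings. The count of 28 genes with the same highest class lay between 23 and 28, and 16 of these genes had it in all 7 alternatives of cells, clusters or scale. The count of 16 was not made over all genes. Bmp7 in Bpifb1-led, Bmp3 in stromal-like, Id2 and Id4 in mural-like cells and Tgfb2 in arterial endothelium stayed past 2-fold wherever they could be computed. The minimum of 20 UMIs and the limit of 1.5-fold reuse the main ratio and could not lose a call. The others fell inside 2-fold under at least 1 alternative. Their values stand beside each result. The study's own cell lists, where they were used in place of these classes, moved 4 of 44 wild-type levels in the arterial class (Bmp3, Bmp6, Tgfb3 and Id4) and 13 of 44 in the stromal class, the called genes Bmp2, Bmp3 and Gdf5 among them (with Bmp6, Bmp7, Gdf10, Inhba, Chrdl1, Fst, Bambi, Smad7, Id2 and Id3). Of the single-gene values, 411 were unchanged by these criteria, 24 moved and 22 fell inside 2-fold, and none reversed. The unchanged ones include the 20-UMI and 1.5-fold settings of the called pairs, which could not change. The cause of these shifts was not tested. At 17 to 54 UMIs a value, depth limits the arterial ratios.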
